A study of Mus musculus with 6 samples.

Results

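The genes described here encode the semaphorins, ephrins, netrins and Slits, which are families of guidance cues, and their neuropilin, plexin, Eph, UNC5 and Robo receptors. They were taken by gene symbol from the deposited value table, with 1 array feature per gene, and the feature with the higher mean over the 6 arrays was used where a gene had several. This gave 65 genes of 30145 with a feature of exactly 1 symbol: 19 semaphorins, 10 neuropilins and plexins, 8 ephrins, 13 Eph receptors, 8 netrins and UNC5 genes, and 7 Slits and Robos. The symbol rule also admits Unc5cl, which resembles the UNC5 receptors in sequence. Nrp1, Sema4a and Ntn3 are not described, because each shares its feature with the symbol of another gene.

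The samples were soleus muscles, a slow calf muscle, from male mice aged 39 to 41 weeks. In the 3 cKO mice, Mbtps1, which encodes site-1 protease, was deleted by Cre under the control of Dmp1, which osteocytes of bone express. The 3 Control mice were littermates labelled wild type. The labels do not say whether they carried the Cre or a floxed allele, nor in which cells of the muscle the Cre was active. Each mouse gave 1 array from the soleus muscles of its legs, and precision is limited by there being 3 arrays a group.

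Guidance cues bind receptors on the tip of a growing axon or on a migrating cell and steer it by attraction or repulsion. Secreted class 3 semaphorins act through neuropilins paired with plexins, most other semaphorins bind plexins directly, and plexins signal by switching off small GTPases of the Ras and Rap type. Ephrins stay on the cell surface and signal into both the cell that carries the Eph receptor and the cell that carries the ephrin, while netrins bind DCC, neogenin or UNC5 receptors and Slits bind Robos. In muscle these families are known from motor axon targeting, from the patterning of blood and lymph vessels, and from satellite cells, the stem cells of muscle.

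Log2 array medians were 4.0 to 4.37 in cKO and 4.02 to 4.13 in Control soleus, with cKO 1 at the upper end. All 11 slow and all 9 fast fibre markers lay above the median of every array. Of the fast markers, Actn3 was at 11.47, 15.67 and 10.66 in cKO and 7.97, 11.27 and 10.72 in Control soleus. Myh4 was at 13.51, 16.88 and 13.67 in cKO and 11.72, 13.62 and 13.52 in Control soleus, so that both were highest on cKO 2. Myh1 and Myh2 lay between 19.07 and 19.93 on all arrays. Of 6 osteocyte markers 0 lay above the median of every array, Dmp1 and Sost being below it on every array. Mbtps1 itself was at 7.77, 7.44 and 7.11 in cKO and 7.39, 7.05 and 7.24 in Control soleus. The groups overlapped, and which part of the gene its feature covers is not known here, so that its level does not check the labels. Mouse numbers fell in a low range (cKO 1, Control 1 and Control 2) and a high range (cKO 2, cKO 3 and Control 3). Differences within each range are given where they bear on a result. Those among low-numbered mice rest on cKO 1 alone for cKO and carry its higher array median. Those among high-numbered mice rest on Control 3 alone for Control. Where all cKO arrays lie above, or all below, the Control arrays, both differences must share a direction. That is then no separate result. The labels do not say what the ranges stand for.

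A feature was tested when its signal exceeded the median of its own array on at least 3 arrays. Of the 65 guidance genes 47 passed, 41 of them on all 6 arrays, and the highest signal of any of them was 9.68, far from the ceiling of the scale near 19.9. The other 18 were Sema3a, Sema4f, Plxna3, Efna2, Epha1, Epha3, Epha5, Epha6, Epha8, Epha10, Ephb3, Unc5c, Unc5cl, Unc5d, Slit1, Slit2, Robo2 and Robo3. Sema3a, a repellent of motor axons, and Slit2 and Robo2, a ligand and receptor of midline crossing, are among the best known of them. Their signals lay between 3.34 and 4.33 on all arrays, and no difference is read from them. All 18 had their highest value on cKO 1, and 1 of the 18 did so after quantile normalization. The same array was the highest for 26 of the 47 tested genes as deposited and for 4 of 47 after quantile normalization.

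**Figure D1:**
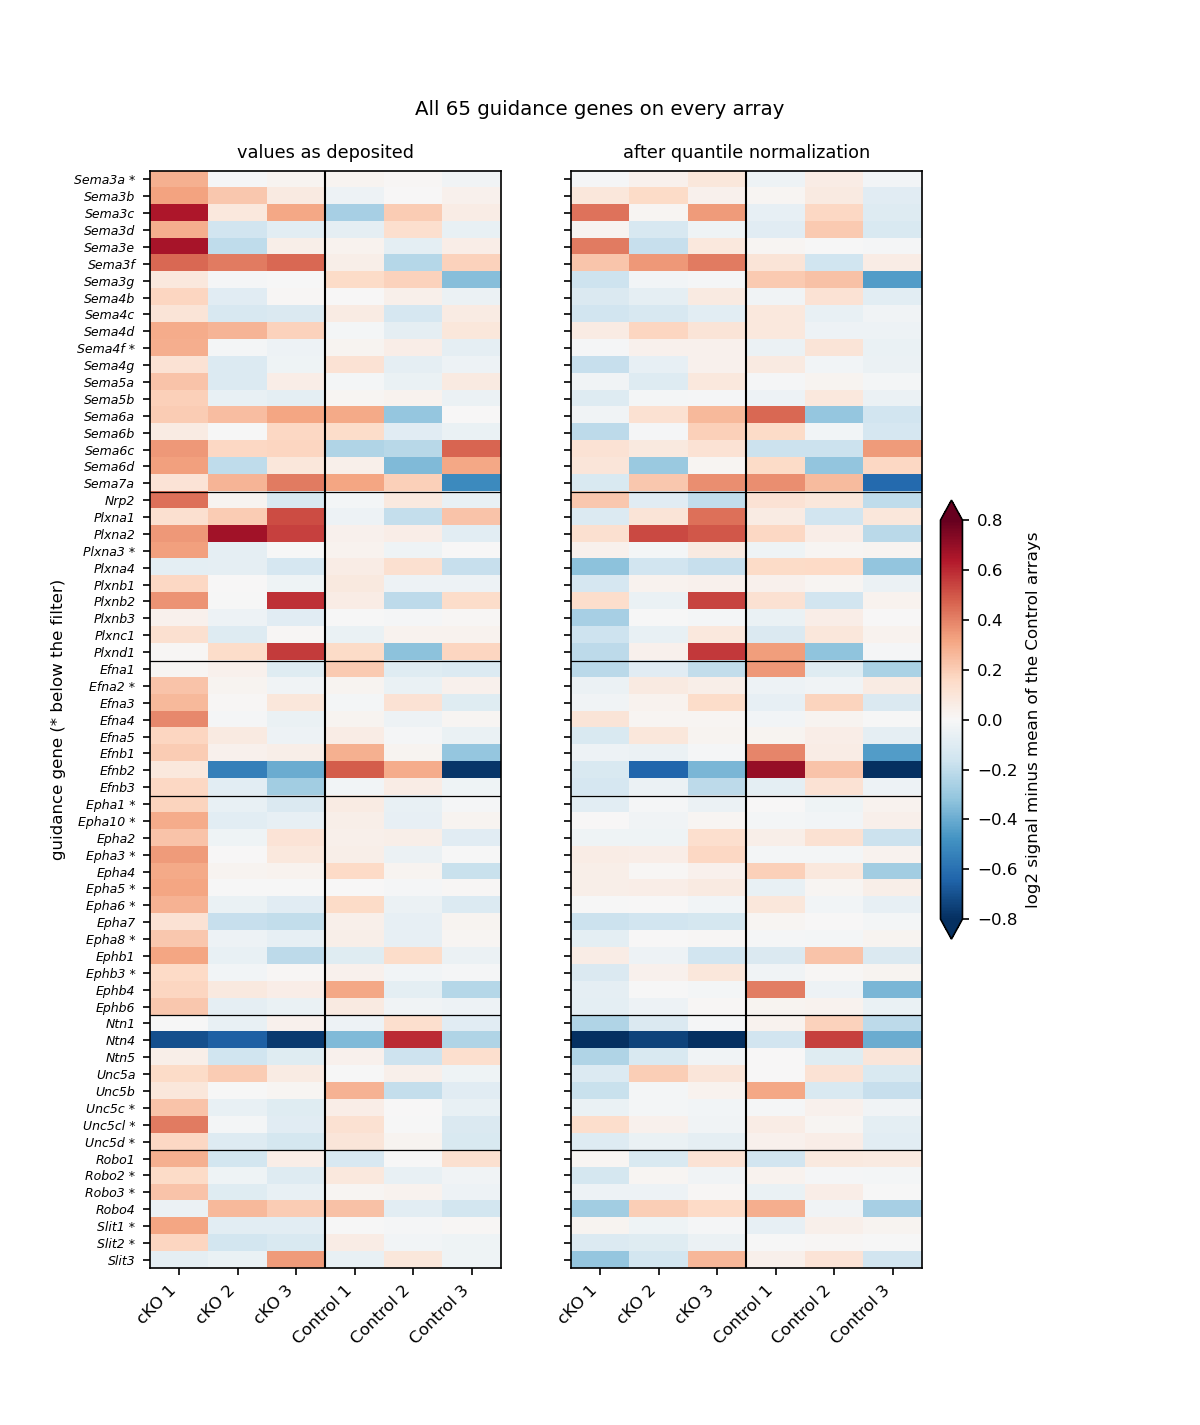
Log2 signal of each of the 65 guidance genes on every array, minus the mean of the Control arrays for that gene, with cKO arrays left of Control arrays and genes grouped by family. The left panel shows values as deposited, where the cKO 1 column is shaded red for most genes, and the right panel the same after quantile normalization, where that column no longer stands out. An asterisk marks the 18 genes below the filter, and colours are capped at 0.8 log2 units in each direction.

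Loss of Mbtps1 through Dmp1-Cre was compared with littermate Control soleus. As a set, the guidance genes differed between the groups by about as much as all features did. Whole muscle was measured, so that fewer cells of a type and less RNA per cell cannot be told apart. None of the 47 passed an adjusted p of 0.05 in limma (0 of 47, the smallest adjusted p being 0.999), as was the case for 0 of the 33334 features tested (0%). The genes Plxna2, Sema3f and Ntn4 had an unadjusted p under 0.05, which is 3 of 47 or 6.38%, against 4.50% of all features tested. By direction, 2 were higher in cKO soleus, where 3.70% of all features were, and 1 was lower, where 0.807% were. Every member is a feature with exactly 1 symbol. In a limma fit of such features alone, 1282 of 18636 had an unadjusted p under 0.05, 1107 of them higher, and 3 of the 47 did. The median difference of the tested guidance genes, cKO minus Control, was 0.07 log2 units, and the median over all features tested was 0.07 as well. There were 36 guidance genes with a difference above 0 (76.6%), against 65.8% of all features. After quantile normalization 19 of 47 were above 0, against 49.2% of all features, and the guidance median was -0.02. The 95% intervals of single differences reached a median of 0.36 log2 units to each side, and 2 of the 47, those of Ntn4 and Efnb2, included a difference of 1 log2 unit.

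The 3 cKO arrays lay wholly above the 3 Control arrays for 5 guidance genes, Plxna2, Sema3f, Sema4d, Sema3b and Unc5a, and wholly below them for Ntn4. Together this is 6 of 47 or 12.8%. Over all features tested 11.0% did not overlap, 8.95% higher and 2.05% lower in cKO. Among those with exactly 1 symbol, as every member has, 14.0% did not overlap and 11.9% were higher. After quantile normalization 4 of the 47 did not overlap, against 9.97% of all features. These were Ntn4 and Sema3f, with Epha7 and Sema4c, both lower, in place of the others.

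**Figure D2:**
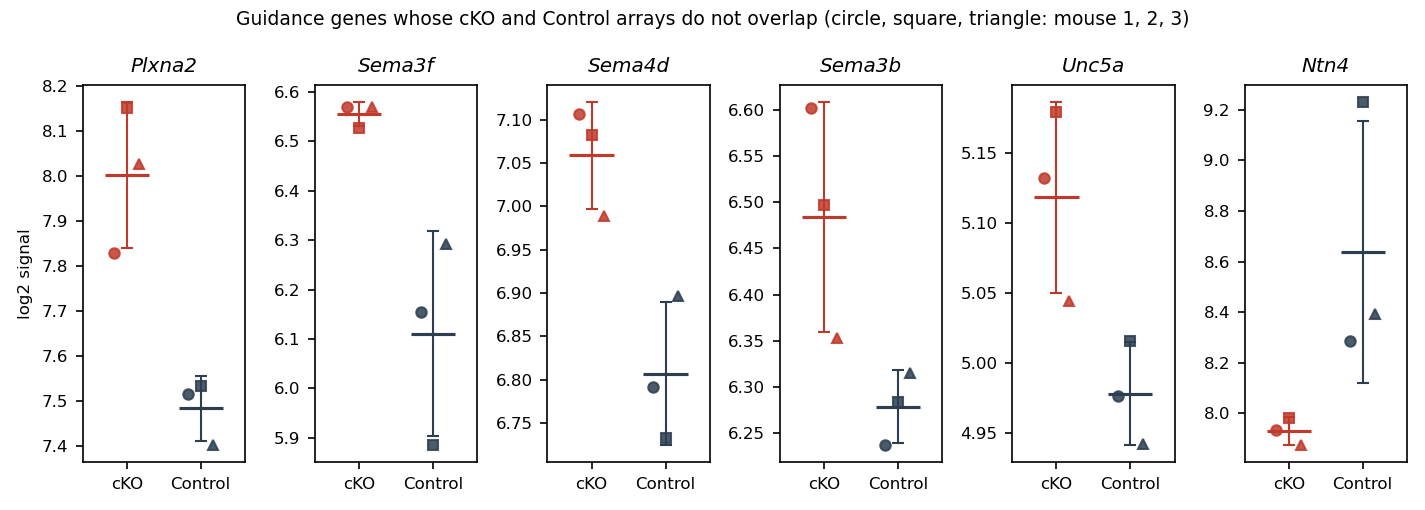
Log2 signals of the 6 guidance genes whose groups do not overlap on the values as deposited, with cKO arrays left of Control arrays. Points are single mice, horizontal bars are group means and error bars are 1 SD (n = 3 each); each panel has its own scale. Control 2 stands above the other Control arrays for Ntn4, at 9.23.

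The semaphorins had 17 of 19 genes tested, with differences from -0.05 to 0.44 log2 units and 15 above 0 (8 after quantile normalization). Sema3f, a secreted semaphorin that acts through neuropilin-2, had log2 signals of 6.57, 6.53 and 6.57 in cKO soleus and 6.16, 5.89 and 6.29 in Control soleus. The cKO arrays were tightly grouped and all lay above the Control arrays, with Control 2 the lowest. The difference was 0.44 log2 units (SE 0.15, limma unadjusted p = 0.0239, adjusted p = 0.999), or a fold of 1.36, and it was 0.55 among low-numbered and 0.26 among high-numbered mice. The groups also stayed apart after quantile normalization, where the difference was 0.33, but not after centring on array medians (limma unadjusted p = 0.0564).

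Sema3b, another secreted semaphorin, was at 6.60, 6.50 and 6.35 in cKO and 6.24, 6.28 and 6.32 in Control soleus. Its groups did not overlap as deposited, with cKO 3 close to the Control arrays, and the difference of 0.21 (SE 0.13, limma unadjusted p = 0.173) was 0.09 after quantile normalization. Sema3c, which guides cells of the heart outflow tract and binds both neuropilins, had signals of 9.51, 8.95 and 9.17 in cKO and 8.60, 9.07 and 8.92 in Control soleus. Here the groups overlapped, cKO 1 being the highest array and Control 1 the lowest (difference 0.35, SE 0.23, 95% interval -0.19 to 0.89). Sema3e, which binds plexin-D1 without a neuropilin, was raised on a single array, cKO 1, at 5.35, against 4.48 and 4.73 on the other cKO arrays and 4.61 to 4.74 in Control soleus. The rest of class 3, Sema3d and Sema3g, differed by 0.02 each.

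Among membrane-bound semaphorins, Sema4d, the ligand of plexin-B1, had signals of 7.11, 7.08 and 6.99 in cKO and 6.79, 6.73 and 6.90 in Control soleus. All cKO arrays lay above all Control arrays, and the difference was 0.25 (SE 0.14, limma unadjusted p = 0.110). After quantile normalization it was 0.11 and the groups overlapped. Sema6a, a ligand of plexins A2 and A4, was at 7.85, 7.89 and 7.97 in cKO and 7.95, 7.34 and 7.66 in Control soleus. The groups overlapped, the cKO arrays being close together and Control 2 the lowest (difference 0.25, SE 0.20). Without Control 2 that difference was 0.10 and without Control 1 it was 0.41.

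Of the 47 tested genes, 22 differed in the same direction within both mouse number ranges, and Sema6c and Sema7a were among those that did not. The share over all features was not computed for this count, so that nothing is read from it. Sema6c, a transmembrane semaphorin, was at 7.07, 6.89 and 6.90 in cKO and 6.48, 6.50 and 7.19 in Control soleus, so that Control 3 was the highest array of all. Its difference of 0.23 (SE 0.23) was 0.58 among low-numbered and -0.30 among high-numbered mice. Sema7a, which is anchored to the membrane by a lipid and binds plexin-C1 and integrins, was at 6.05, 6.21 and 6.36 in cKO and 6.26, 6.13 and 5.43 in Control soleus. Control 3 was its lowest array, and the difference of 0.27 (SE 0.24) was -0.14 among low-numbered and 0.85 among high-numbered mice. Without Control 3 the difference was 0.01 for Sema7a and 0.46 for Sema6c. The remaining tested semaphorins, Sema4b, Sema4c, Sema4g, Sema5a, Sema5b, Sema6b and Sema6d, overlapped between groups, with differences from -0.05 to 0.08.

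**Figure D3:**
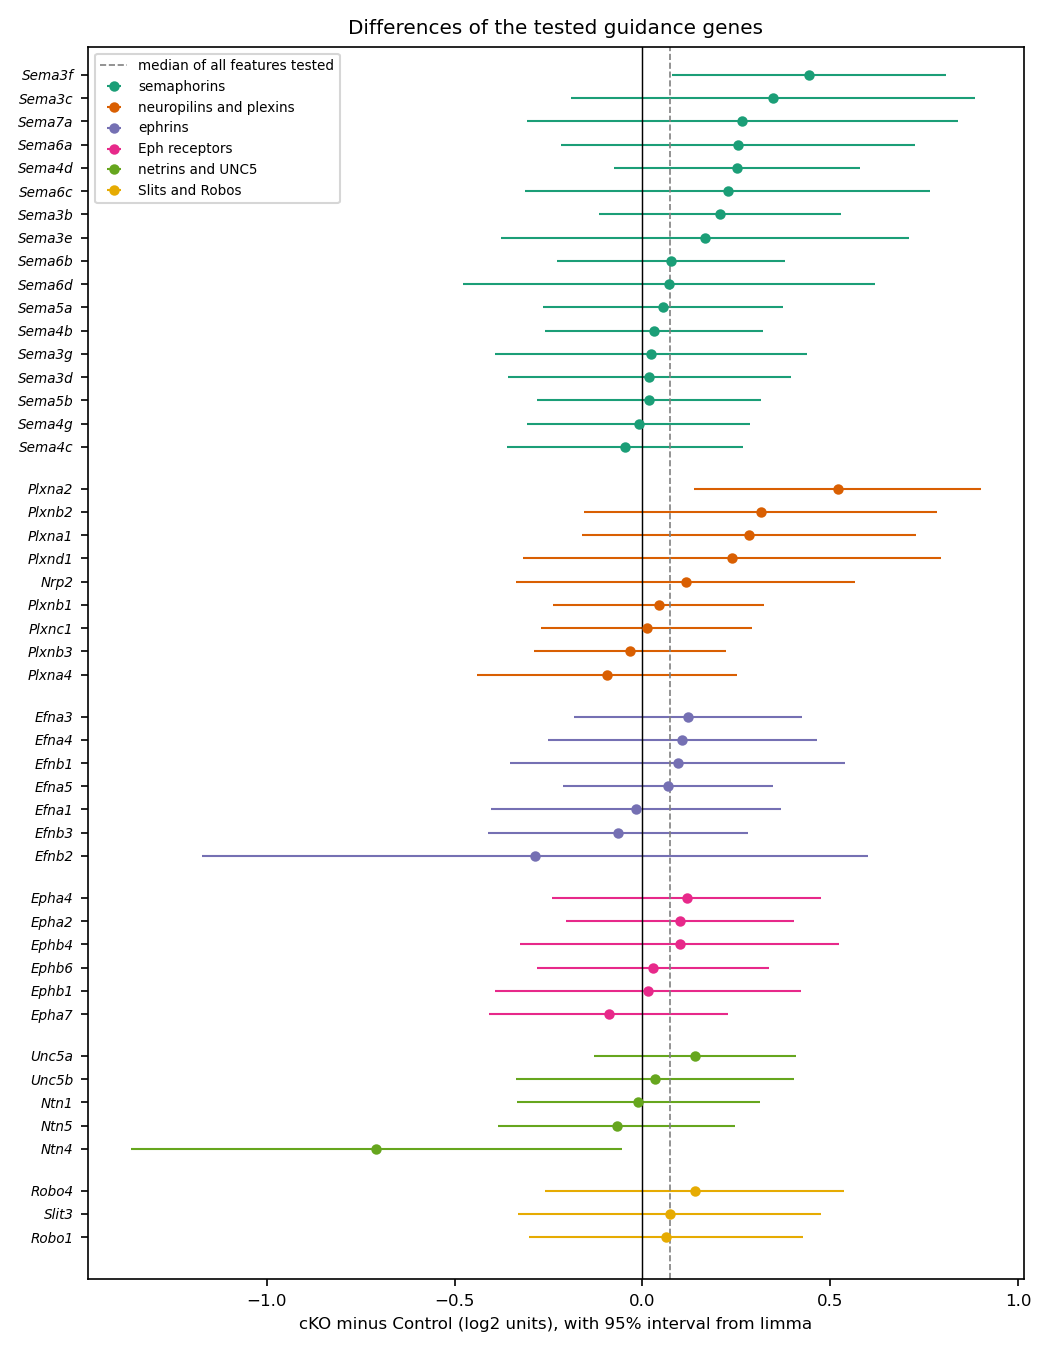
Difference between cKO and Control soleus in log2 units for the 47 tested guidance genes, by family, with the 95% interval from limma. The dashed line is the median over all features tested, 0.07. Plxna2 and Sema3f at the top of their families and Ntn4 at the bottom of its family are the genes whose intervals leave out 0.

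Plexins and the measured neuropilin had 9 of 10 genes tested, with 7 differences above 0 (4 after quantile normalization). Plxna2, a receptor of class 6 semaphorins that also pairs with neuropilins, had the largest positive difference of the 47 genes. Its log2 signals were 7.83, 8.15 and 8.03 in cKO soleus and 7.51, 7.53 and 7.40 in Control soleus. The Control arrays were close to each other and all cKO arrays lay above them. The difference was 0.52 log2 units (SE 0.16, limma unadjusted p = 0.0151, adjusted p = 0.999), or a fold of 1.43, and it was 0.30 among low-numbered and 0.69 among high-numbered mice. After quantile normalization it was 0.38 (limma unadjusted p = 0.0840), and cKO 1 then lay at 7.68, just under Control 1 at 7.72.

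Plxnb2, a receptor of Sema4c, was at 6.42, 6.05 and 6.64 in cKO and 6.11, 5.85 and 6.21 in Control soleus, with cKO 2 inside the Control range. Plxna1, a receptor of class 3 semaphorins through neuropilins, was at 7.05, 7.12 and 7.44 in cKO and 6.88, 6.73 and 7.15 in Control soleus, with Control 3 above the lower 2 of the cKO arrays. Their differences were 0.31 (SE 0.20) and 0.28 (SE 0.19). For both, cKO 3 was the highest array, and it was so for Plxnd1 as well, the receptor of Sema3e in vessels, at 8.35, 8.49 and 8.90 in cKO and 8.50, 8.02 and 8.52 in Control soleus (difference 0.24, SE 0.23). The Plxnd1 difference was 0.0772 without cKO 3 and 0.0754 without Control 2. Nrp2, the receptor of Sema3f and a marker of lymphatic and venous endothelium, had 7.66, 7.24 and 7.09 in cKO and 7.20, 7.29 and 7.15 in Control soleus. The groups overlapped for Nrp2, so that Sema3f and its receptor did not show the same order of arrays. Plxna4, which shares ligands with Plxna2, differed by -0.09 (SE 0.15), and Plxnb1, Plxnb3 and Plxnc1, the receptors of Sema4d, Sema5a and Sema7a, by 0.04, -0.03 and 0.01.

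Ntn4 had the largest difference in either direction. It encodes netrin-4, a secreted protein of basement membranes that binds laminin. Its log2 signals were 7.93, 7.98 and 7.87 in cKO soleus and 8.29, 9.23 and 8.39 in Control soleus. The cKO arrays were close together and all lay below the Control arrays, of which Control 2 was the highest by a wide margin. The difference was -0.71 log2 units (SE 0.27, 95% interval -1.36 to -0.05, limma unadjusted p = 0.0379, adjusted p = 0.999). It was -0.83 among low-numbered and -0.47 among high-numbered mice, and -0.41 without Control 2. In limma the unadjusted p was 0.0741 with the mouse number range as a block, 0.0644 without Control 2, and 0.0775 to 0.0932 without any single cKO array. Ntn4 was the only guidance gene whose groups did not overlap as deposited, after quantile normalization and after median centring. Epha7 did not overlap after quantile normalization or after median centring, but did overlap as deposited. The other alternatives use these same values or leave arrays out, so that they could not make the Ntn4 groups overlap.

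The promoters of Plxna2 and Ntn4 are shown because these genes had the largest positive and the largest negative difference. They are RefSeq sequences on GRCm38.p6, from 250 bases before to 50 bases after the start on the plus strand, Plxna2 at chr1:194619579-194619878 and Ntn4 at chr10:93640799-93641098. Capitals mark GGGCGG, the GC box bound by Sp family factors, on either strand.
Plxna2: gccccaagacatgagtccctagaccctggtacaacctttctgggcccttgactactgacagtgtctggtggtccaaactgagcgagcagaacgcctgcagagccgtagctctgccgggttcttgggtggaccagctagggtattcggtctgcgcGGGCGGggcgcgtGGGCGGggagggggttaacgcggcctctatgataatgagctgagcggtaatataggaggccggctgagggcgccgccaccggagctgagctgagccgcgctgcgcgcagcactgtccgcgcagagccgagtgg
Ntn4: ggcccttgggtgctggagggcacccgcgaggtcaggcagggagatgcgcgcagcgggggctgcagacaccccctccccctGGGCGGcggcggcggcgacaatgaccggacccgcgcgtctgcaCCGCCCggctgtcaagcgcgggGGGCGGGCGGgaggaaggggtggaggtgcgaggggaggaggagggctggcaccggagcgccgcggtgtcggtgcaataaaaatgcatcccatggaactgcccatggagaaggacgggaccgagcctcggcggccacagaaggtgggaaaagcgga

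The Plxna2 window held GGGCGG at 2 positions and the Ntn4 window at 4, of which 2 overlap each other. Promoters were found for 56 of the 65 guidance genes, with 69 start sites in all, and 71.0% of these held GGGCGG, against 35.7% of the 32851 promoters in the table. The E-box CACGTG, a site of clock and Myc factors that reads the same on both strands and does not overlap GGGCGG, was in 0 places in either window. It was in 7.25% of guidance promoters and 7.15% of all. These matches describe the letters of the windows only.

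The other netrin and UNC5 genes with a tested feature differed little. Ntn1, the founding netrin and an attractant of commissural axons, was at 6.47, 6.41 and 6.51 in cKO and 6.43, 6.61 and 6.38 in Control soleus, a difference of -0.01 (SE 0.14). Unc5a, a netrin receptor of the nervous system, was at 5.13, 5.18 and 5.04 in cKO and 4.98, 5.02 and 4.94 in Control soleus. Its groups did not overlap as deposited, though cKO 3 lay close above Control 2, and the difference of 0.14 (SE 0.11, limma unadjusted p = 0.253) was 0.06 after quantile normalization, where the groups overlapped. Unc5b, the UNC5 receptor of blood vessels, differed by 0.03 (SE 0.16) and Ntn5 by -0.07 (SE 0.13). Of 11 partners outside the symbol rule 7 were tested, 5 of them with a difference above 0, and 0 had an unadjusted p under 0.05. The smallest unadjusted p was that of Rgma, a ligand of neogenin, with a difference of 0.39 (SE 0.24, limma unadjusted p = 0.155). Neo1, which encodes neogenin, had signals of 9.65, 9.94 and 9.86 in cKO and 9.83, 10.28 and 9.99 in Control soleus, while Dcc lay below the filter on all arrays at 3.26 to 3.64.

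Ephrins had 7 of 8 genes tested, with differences from -0.29 to 0.12 log2 units, and 0 whose groups did not overlap. Efnb2, which marks arteries and signals to EphB4 on veins, had log2 signals of 9.29, 8.65 and 8.80 in cKO soleus and 9.68, 9.50 and 8.42 in Control soleus. The Control arrays enclosed the cKO arrays from both sides, with Control 1 the highest and Control 3 the lowest array of all. The difference of -0.29 (SE 0.37, 95% interval -1.17 to 0.60) was -0.30 among low-numbered and 0.31 among high-numbered mice, and it was -0.0447 without Control 1, -0.14 without Control 2 and -0.68 without Control 3, with limma unadjusted p of 0.912, 0.754 and 0.0382. Efnb1, a transmembrane ephrin, was also the lowest on Control 3, at 6.68, 6.51 and 6.52 in cKO and 6.76, 6.50 and 6.17 in Control soleus. Efna1, which is found on endothelium, was at 7.57, 7.59 and 7.45 in cKO and 7.76, 7.45 and 7.44 in Control soleus. Efna3, known in mouse muscle as a ligand of slow fibres, was at 4.59, 4.34 and 4.42 in cKO and 4.31, 4.44 and 4.23 in Control soleus, which overlapped (difference 0.12, SE 0.13). The features of Efna4, Efna5 and Efnb3 had signals between 3.88 and 4.64 and differences from -0.06 to 0.11.

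Eph receptors had 6 of 13 genes tested and 0 whose groups did not overlap on the values as deposited. Ephb4, the venous receptor of ephrin-B2, had 6.75, 6.65 and 6.63 in cKO and 6.88, 6.50 and 6.35 in Control soleus, with the cKO arrays inside the Control range (difference 0.10, SE 0.18). Epha4, through which ephrins repel motor axons, was at 5.55, 5.28 and 5.28 in cKO and 5.41, 5.28 and 5.07 in Control soleus (difference 0.12, SE 0.15). Epha2 and Ephb6 differed by 0.10 (SE 0.13) and 0.03 (SE 0.13), and Epha7 by -0.09 (SE 0.13), each with cKO 1 as the highest array. Ephb1 was the only guidance gene with 2 features, which differed by 0.02 and, for the dimmer feature, by 0.09. Among 25 genes of Eph and ephrin signalling, 22 were tested, 15 differed by more than 0, and 0 had an unadjusted p under 0.05. The smallest was that of Abl1, a cytoplasmic kinase, at 7.55, 7.42 and 7.52 in cKO and 6.98, 6.60 and 7.41 in Control soleus (difference 0.50, SE 0.23, limma unadjusted p = 0.067). The groups of 6 of these 22 genes did not overlap, 4 higher and 2 lower in cKO. Of all features 11.0% did not, and of those with exactly 1 symbol 14.0%. After quantile normalization 2 were higher and 2 lower, where 9.97% of all features did not overlap.

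Markers of blood vessel endothelium are given beside the vascular guidance genes. The mean log2 signal of 11 measured markers, Pecam1 and Cdh5 among them, was 8.36, 8.18 and 8.34 in cKO and 8.79, 8.44 and 8.02 in Control soleus. Control 1 was the highest and Control 3 the lowest array for this mean, as they were for Efnb2, Efnb1 and Ephb4. Sema3g, a semaphorin of endothelium, was at 5.63, 5.54 and 5.55 in cKO and 5.71, 5.74 and 5.21 in Control soleus, with Control 3 the lowest. Control 3 was the lowest array for 15 of the 47 tested guidance genes, Plxna2, Sema7a and Epha4 among them. Robo4, the Robo of endothelium, was at 6.06, 6.36 and 6.31 in cKO and 6.34, 6.02 and 5.96 in Control soleus. Of the 11 markers 5 had a difference above 0, where 65.8% of all features did. Sox18 lay wholly above Control and Cldn5 wholly below, where 8.95% and 2.05% of all features did. After quantile normalization 0 markers lay wholly above and 1 wholly below, where 9.97% of all features did not overlap. The part of the markers in the values of these genes was not tested.

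**Figure D4:**
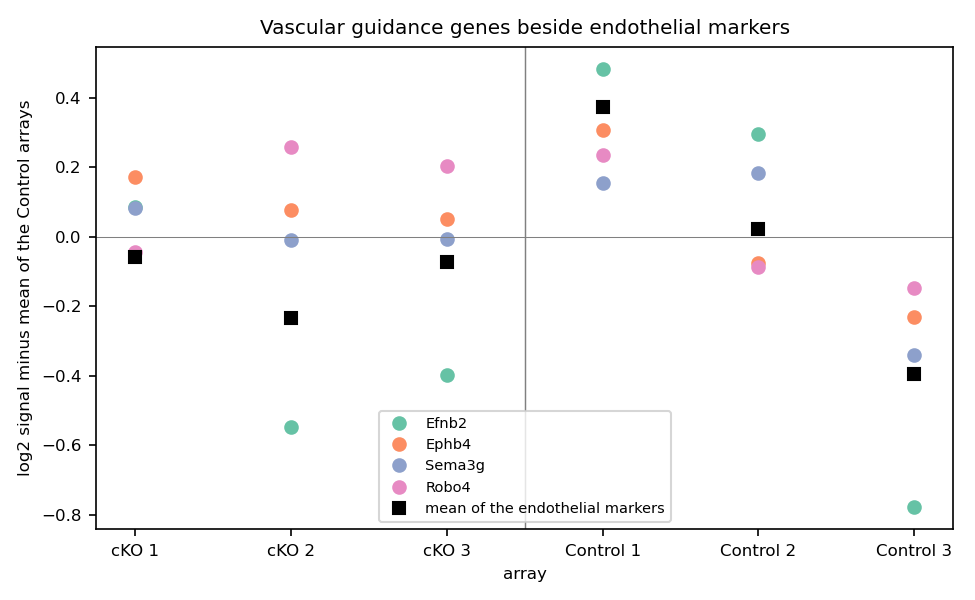
Log2 signal of Efnb2, Ephb4, Sema3g and Robo4 on each array, minus the mean of the Control arrays, beside the mean of 11 markers of blood vessel endothelium (black squares). The cKO arrays are left of the Control arrays. The squares are highest on Control 1 and lowest on Control 3, and Efnb2 has the same array at each end, with signals of 9.68 on Control 1 and 8.42 on Control 3.

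Slits and Robos had 3 of 7 genes tested. Slit3, a secreted Robo ligand, was at 6.78, 6.79 and 7.19 in cKO and 6.79, 6.94 and 6.81 in Control soleus, with cKO 3 the highest array and cKO 1 the lowest. The difference was 0.07 (SE 0.17) and turned to -0.06 after quantile normalization. Robo1, the broadly expressed receptor, and Robo4 differed by 0.06 (SE 0.15) and 0.14 (SE 0.17), each with overlapping groups. Of 13 genes of Slit and Robo signalling 11 were tested and 9 differed by more than 0. Of these only Enah, an actin regulator that Robo binds, had an unadjusted p under 0.05, at 11.54, 11.34 and 11.76 in cKO and 10.89, 11.03 and 11.07 in Control soleus. All cKO arrays of Enah lay above all Control arrays (difference 0.55, SE 0.20, limma unadjusted p = 0.0277, adjusted p = 0.999). Srgap2, a Robo effector that turns off small GTPases, was the other gene whose groups did not overlap, with a difference of 0.33 (SE 0.14). Over all features, 3.70% were higher at an unadjusted p under 0.05 in limma and 8.95% lay wholly above Control, as did 11.9% of those with exactly 1 symbol. After quantile normalization 7 of the 11 differed by more than 0, where 49.2% of all features did. Of the 11, 2 then lay wholly above Control and 1 wholly below, where 9.97% of all features did not overlap.

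Most tested genes that act downstream of or beside plexins and neuropilins had a higher mean in cKO soleus, although 0 of them passed an adjusted p of 0.05 in limma. Of 24 such genes 21 were tested, 19 differed by more than 0, where 65.8% of all features did, and the median difference was 0.26 log2 units, against 0.07 over all features. All cKO arrays lay above all Control arrays for 14 of the 21. Of all features 8.95% did so, and of those with exactly 1 symbol 11.9%. At an unadjusted p under 0.05 in limma 5 were higher, where 3.70% of all features were. That count of 5 was 1 without Control 2, 2 without cKO 3 and 3 without any other array. After quantile normalization, 7 of 21 lay wholly above, against 4.99% of all features, 2 had an unadjusted p under 0.05, where 4.54% of all features did, and the median was 0.17. With cKO 1 left out, 14 did not overlap, where 25.4% of all features did not. Leaving out an array cannot make separate groups overlap, so that this count could not fall below 14 and is no separate result. The median without cKO 1 was 0.25, against -0.02 over all features. These genes belong to many other pathways too. The list was chosen with earlier results of these data known, so that its counts are not independent of them.

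The 5 genes with an unadjusted p under 0.05 included 2 of the R-Ras type, on which plexins act as GTPase-activating proteins. Rras had log2 signals of 11.61, 11.83 and 12.65 in cKO soleus and 10.53, 11.14 and 10.66 in Control soleus, with cKO 3 the highest (difference 1.25, SE 0.33, limma unadjusted p = 0.00731, adjusted p = 0.999). Rras2 was at 9.30, 8.89 and 9.02 in cKO and 8.52, 8.61 and 8.69 in Control soleus (difference 0.46, SE 0.18). Rnd1, whose protein binds plexins, was at 5.85, 5.25 and 5.31 in cKO and 5.06, 4.99 and 4.70 in Control soleus (difference 0.55, SE 0.20). Fyn, a kinase of semaphorin signalling, was at 7.28, 7.37 and 7.38 in cKO and 7.11, 6.86 and 6.90 in Control soleus (difference 0.39, SE 0.15). Farp1, a FERM-domain exchange factor of plexin signalling, was at 5.65, 5.56 and 5.71 in cKO and 5.32, 5.23 and 5.43 in Control soleus (difference 0.32, SE 0.12). In each of the 5 the groups did not overlap. That alone places the difference above 0 within both the low and the high mouse numbers, which is therefore no separate result. Mras, a further GTPase of the R-Ras type, differed by -0.06 (SE 0.16), and Kdr, the VEGF receptor that partners neuropilin and is itself an endothelial marker, by -0.52 (SE 0.40), with Control 1 at 12.76 against 11.26 to 11.42 on the other arrays.

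**Figure D5:**
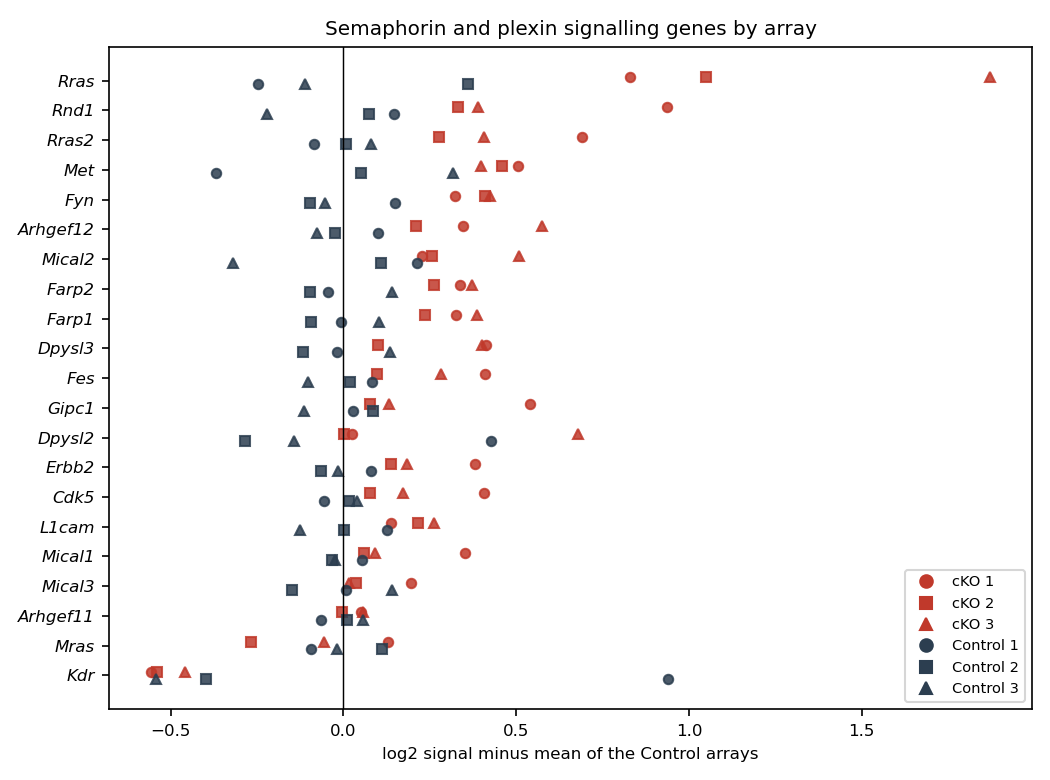
Log2 signal of the 21 tested genes of semaphorin and plexin signalling on each array, minus the mean of the Control arrays for that gene, cKO in red above Control in dark blue within each row, with genes ordered by their difference. The red symbols lie to the right of all blue symbols in 14 rows, and Kdr and Mras at the bottom are the rows with a negative difference.

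Markers of other cell types are given beside these genes. The mean of 11 tendon markers was 6.46 to 6.65 in cKO and 5.31 to 5.96 in Control soleus. Of the 9 tested 9 differed by more than 0, where 65.8% of all features did. Of these 6 lay wholly above Control, where 8.95% of all features and 11.9% of those with exactly 1 symbol did. After quantile normalization 4 did, where 4.99% of all features did. In contrast, the marker Scx overlapped, at 5.63, 5.57 and 5.88 in cKO and 5.44, 5.77 and 5.68 in Control soleus. Its difference of 0.07 (SE 0.15) was -0.02 after quantile normalization. Mkx, a defining tendon factor, was near the lower end of the scale at 3.54 to 3.71. The 6 adipocyte markers had means of 6.44 to 6.97 in cKO and 6.38 to 6.49 in Control soleus. Of the 6, 4 differed by more than 0, and the median difference was 0.40. Cidec and Plin1 were higher at an unadjusted p under 0.05 in limma, where 3.70% of all features were. Both lay wholly above Control, where 8.95% of all features did. After quantile normalization 2 markers lay wholly above, and 1 had an unadjusted p under 0.05, where 4.99% and 4.54% of all features did. The array means of this list overlapped between the groups, as did those of the lists that follow. Macrophage markers had means of 6.03 to 6.78 in cKO and 5.75 to 6.28 in Control soleus, with 11 of 12 above 0. Means of 10 fibroblast markers were 8.86 to 9.61 in cKO and 8.83 to 9.45 in Control soleus. Those of 11 markers of smooth muscle and pericytes were 9.79 to 10.04 in cKO and 9.55 to 9.84 in Control soleus, and those of 8 Schwann cell markers 5.53 to 5.82 in cKO and 5.50 to 5.70 in Control soleus. Of 7 neuronal markers only Stmn2 lay above the median of every array. The part of these cells in the values of the guidance and signalling genes was not tested.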

How the data were processed

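The deposited table held log2 signals in 1 column for each of 6 Affymetrix arrays. Total RNA (100 ng) was made into biotinylated cDNA, per the labels' protocols. The log base was read from the range of the values (1.92 to 19.93). The sources used here give neither background correction, summarisation and normalization nor software and build. Of 72688 features, 65956 held values. Symbols came from the platform annotation, repeats of a symbol counting as 1; 30604 features had 1 symbol, 2146 several and 33206 were unnamed here.

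Features above their array's median on at least 3 arrays (33334) entered limma (version 3.58.1, R version 4.3.3), with lmFit and eBayes with an intensity trend, two-sided, without a block, with Benjamini-Hochberg adjustment over all of them. Intervals are limma's 95% intervals of the difference. The limma p-values set the group difference against the spread between mice, with each feature's variance drawn toward a trend over all features tested. An exact permutation test of 3 against 3 cannot go below 0.1 and was not used. The fit was tested on simulated data. Figures were made with Python 3.11.15 and matplotlib 3.10.9.

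The members and lists were chosen with earlier results of these data known. Values on every array are given for members with an unadjusted p under 0.05 or without overlap and for the highest-signal member of each family, and other members with known roles are named. From each signalling list, genes with an unadjusted p under 0.05 or, where there were none, the smallest p are named. Sema6c, Neo1, Dcc, Srgap2, Mras, Kdr, Stmn2, Actn3, Myh4, Myh1, Myh2, Scx, Sox18 and Cldn5 were named after their values were seen. Alternatives are given at the end.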

Additional observations from a re-analysis of the deposited data

How the results depend on the processing

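No member passed an adjusted p of 0.05 in limma under any of 18 alternatives (0 throughout, 3 members having an unadjusted p under 0.05 in the reported fit), and over all features 0 to 14 passed, the 14 without Control 3. The count of members with an unadjusted p under 0.05, 3 as reported, was 1 with median centring, 1 with quantile normalization and the mouse number range as a block together (chosen after seeing the data), and 0 to 5 when arrays were left out in turn, 0 without cKO 2, 1 without cKO 3, 1 without Control 2 and 5 without Control 3. The count of members whose groups did not overlap, 6 as reported, was 3 with median centring and 7 to 14 when arrays were left out, which fewer arrays alone can raise: 12 without cKO 1, 9 without cKO 2, 14 without Control 1 and 11 without Control 3, where 25.4%, 18.1%, 17.8% and 26.7% of all features did not overlap. The median difference of members, 0.07, ranged from -0.03 with array weights to 0.14 with a filter at the 75th percentile, and was -0.01 to 0.11 when arrays were left out.

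Of 16 guidance genes followed, 13 kept their direction under all 18 alternatives, except that Unc5a was not tested with the filter at the 75th percentile. The others were Ephb4 (-0.0309 with quantile normalization, -0.0268 with array weights, and -0.0158 without Control 3 to 0.253 without Control 1), Slit3 (-0.0629 with quantile normalization, -0.0621 without cKO 3, -0.0862 with quantile normalization and the range block) and Efnb2 (0.0016 with the range as a block); the cause was not tested. Unadjusted p ran from 0.0201 to 0.0932 for Ntn4, from 0.00191 to 0.122 for Plxna2 and from 0.00914 to 0.0819 for Sema3f. For Ntn4 the limma unadjusted p was above 0.05 with the range as a block (0.0741) and without Control 2 (0.0644). Leaving out each cKO array in turn also took Ntn4 above 0.05 (0.0775 to 0.0932). Plxna2 was above 0.05 after quantile normalization (0.0840), after median centring (0.0707) and without cKO 2 (0.0640). Sema3f was above it after median centring (0.0564) and without cKO 2, cKO 3, Control 1 or Control 2 (0.0522 to 0.0796). Fitting the range block to quantile-normalized values gave 0.122 for Plxna2 and 0.0819 for Sema3f. With the replicate number as a block, 3 members had an unadjusted p under 0.05 in limma, 0 passed and 6 did not overlap. The semaphorin and plexin signalling list then had 2 under 0.05. With group means removed, same-numbered mice correlated at 0.13, -0.20 and 0.21 over the features tested. With 3 mice a group, these values cannot decide whether the numbers pair the mice.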
